A study of Mus musculus with 15 samples.

Results

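The genes described here encode the proteins of the mitochondrial ribosome. They were taken as every gene whose symbol in the platform annotation is Mrpl or Mrps followed by a number, from probe sets that carry 1 symbol, and each gene was represented by its probe set with the highest mean over all 15 arrays. This gave 76 genes, 47 with a large-subunit symbol (Mrpl) and 29 with a small-subunit symbol (Mrps), of 18193 genes measured. Within the set, the members were thus chosen by symbol and their probe sets were selected on that mean signal alone. The set itself was proposed with earlier results of these data known. It may therefore have been chosen by the measured differences between groups that are described below. Comparisons of its counts and medians with those of all genes may thus not be independent of that choice. Expression was read from 15 Affymetrix mouse arrays, each hybridised with RNA of primary hepatocytes from C57BL/6 mice, in 5 groups of 3. The cells in 3 groups were infected for 48 hours with an adenovirus for EGFP (a fluorescent protein, the control), wild-type IRE1a or IRE1aS724A and received no treatment. The other two groups carried an adenovirus with a control hairpin (Ad-shCON) or a hairpin against IRE1a (Ad-shIRE1a#2) for 72 hours and were then given glucagon for 4 hours, so no group measured glucagon or time alone. All 15 samples carried an adenovirus, the 2 IRE1a proteins were overexpressed in cells that still had their own Ern1 gene, and 1 hairpin sequence stood for the knockdown. The labels used here give no age or sex of the mice and do not say which culture gave which array; the series text states that the experiment was run 3 times independently.

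The mitochondrial ribosome translates the few messages encoded by mitochondrial DNA, which specify core subunits of the respiratory chain complexes and of ATP synthase. All of its proteins are encoded in the nucleus, made on cytosolic ribosomes and imported, while its RNAs come from mitochondrial DNA. Some of the proteins descend from those of the bacterial ribosome, among them those at the decoding site and around the exit tunnel, and others are found only in mitochondria. Hepatocytes are rich in mitochondria, and glucagon raises oxidative metabolism and gluconeogenesis in them. IRE1a, encoded by Ern1, senses stress in the endoplasmic reticulum, and its kinase domain controls an RNase that splices Xbp1 messenger RNA. Serine 724 lies in the activation loop of that kinase, and in IRE1aS724A it is replaced by alanine.

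Promoter sequences from RefSeq (build GRCm38.p6) were available for 67 of the 76 genes, as windows of 250 bases before and 50 bases after each annotated start. The letters CCGGAAG, the binding site of ETS factors such as GABP, a known activator of nuclear genes for mitochondrial proteins, occurred on either strand in 25 of the 67 (37.3%). They occurred in 12.9% of protein-coding genes and in 9.93% of all genes with a window. The letters AAGATGGC, a YY1 site, occurred in 12 members (17.9%, against 3.57% of protein-coding genes), and the palindromic core site of NRF1 in 3 (4.48%, against 1.47%). Neither TGACGTGG, the element bound by XBP1, nor the ER stress element was found in a member window, and they stood in 0.823% and 0.166% of protein-coding genes. The cAMP response element TGACGTCA was in 2 members, and the E-box CACGTG was in 5 (7.46%, against 8.91%). Base composition differed too, with a median GC content of 58.7% in the members' windows and 56.3% in those of protein-coding genes. A match is a string of letters and not a measured binding site, and a window without one says nothing about a factor. The stretches from 100 bases before to 25 bases after the start are shown for the member that rose most (Mrps12), for one that rose with and one that rose without CCGGAAG in its window (Mrpl43 and Mrps14), and for the single member that fell in IRE1aS724A cells (Mrps36). These 4 were chosen after their values were seen. They are given 5′ to 3′ on the gene's strand, with CCGGAAG in capitals, at chr7:28741797-28741921 (minus strand), chr19:45006418-45006542 (minus strand), chr1:160195115-160195239 (plus strand) and chr13:100744635-100744759 (minus strand).
Mrps12: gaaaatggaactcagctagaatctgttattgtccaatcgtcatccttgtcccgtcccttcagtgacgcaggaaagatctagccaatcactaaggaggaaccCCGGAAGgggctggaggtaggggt
Mrpl43: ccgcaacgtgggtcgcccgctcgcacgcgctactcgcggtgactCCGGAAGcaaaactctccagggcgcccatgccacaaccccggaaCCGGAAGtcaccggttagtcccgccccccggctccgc
Mrps14: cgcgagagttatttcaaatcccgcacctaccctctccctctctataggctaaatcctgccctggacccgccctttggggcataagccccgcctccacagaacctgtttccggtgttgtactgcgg
Mrps36: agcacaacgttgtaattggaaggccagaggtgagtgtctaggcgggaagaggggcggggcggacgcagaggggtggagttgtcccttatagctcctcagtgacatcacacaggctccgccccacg
Mrps12 carried the letters at its start and Mrpl43 carried them in 2 places, while Mrps14 and Mrps36 showed none. Of the 14 members with a significant rise in wild-type IRE1a cells, all with a window, 8 held CCGGAAG, against 17 of the other 53.

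The label check used Ern1 itself, by its probe set with the highest mean. Its log2 signal was 7.60, 7.44 and 7.51 on the 3 arrays with the IRE1a hairpin and 8.89, 8.96 and 9.10 on those with the control hairpin, a 2.76-fold lower level (adjusted p = 0.00293). Ern1 did not pass the test with wild-type IRE1a (difference 0.12) or IRE1aS724A (0.46, adjusted p = 0.159), so the arrays' mouse probes did not show the inserted gene; whether they cover it was not tested. The dimmer Ern1 probe sets showed smaller differences on knockdown. Their group means went from 6.84 with the control hairpin to 6.27 with the IRE1a hairpin, from 5.89 to 5.46 and from 4.51 to 3.86. The dimmest went the other way, from 3.66 to 4.01. Array medians lay between 5.69 and 5.83. Hepatocyte markers averaged 11.7 to 11.9 in each group, and the lists for macrophages, endothelial, stellate and bile duct cells, blood cells and erythroid cells averaged 4.29 to 5.91. Single genes, named after their values were seen, departed from these averages. Over the 15 arrays Cd68 of the macrophage list lay at 10.96 to 12.13 and Fcgr2b of the endothelial list at 7.64 to 8.86. The hepatocyte marker Ass1 lay at 4.59 to 5.22. In bulk cells, a lower signal from fewer cells of a type cannot be told apart from less RNA per cell. Throughout, a change is a difference of mean log2 signal ± limma's standard error with 3 arrays per group, and a gene was called at a Benjamini-Hochberg adjusted p under 0.05 over all 16294 genes tested. All 76 members were among those tested.

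The members were bright. The median signal of all tested genes was 7.27 to 7.54 on the 15 arrays, and that of the members was 10.27 to 10.72. Their mean signals over the 15 arrays ran from 7.87 for Mrps27 to 12.28 for Mrpl39 on the log2 scale. The lowest 3 were Mrps27, Mrpl54 and Mrps36 and the highest 3 were Mrpl35, Mrpl15 and Mrpl39; signals of different probe sets depend on their probes and give no order of message levels. The spread between the highest and lowest group mean of a member had a median of 0.32 (range 0.09 to 0.86), against a median standard deviation within groups of 0.12, and it exceeded 0.5 in 18 members. The group with the highest mean was wild-type IRE1a for 33 members, IRE1aS724A for 27, the control hairpin for 8, the IRE1a hairpin for 6 and EGFP for 2. The lowest mean was in a hairpin group for 23 members each, in EGFP for 21, in wild-type IRE1a for 6 and in IRE1aS724A for 3. The spread and these group counts were not set beside those of all genes.

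**Figure D1:**
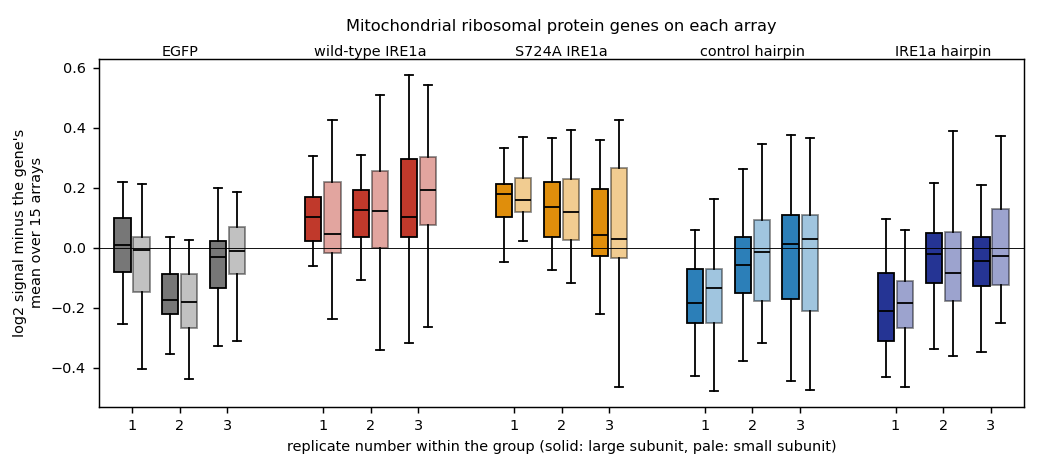
Log2 signal of each gene minus its own mean over 15 arrays (vertical axis), as boxes (median, quartiles, whiskers to 1.5 times the box) over the 47 large-subunit genes (solid) and the 29 small-subunit genes (pale) on each of the 15 arrays. The boxes of the wild-type IRE1a and IRE1aS724A arrays have medians above 0, those of EGFP replicate 2 and of replicate 1 in both hairpin groups lie lowest, and the boxes of the 2 subunits overlap on each array.

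Cells with wild-type IRE1a had higher messenger RNA for part of the mitochondrial ribosome than cells with EGFP. Of the 76 members, 14 rose (18.4%), against 5.08% of all genes tested, and 0 fell, against 2.59% (7.67% in either direction); 31 members (40.8%) had an unadjusted p under 0.05, against 21.4% of all genes. The median change of the members was 0.19, and that of all genes was 0.00. Brighter genes were called more often. Of 11489 genes with a signal of at least 6 on at least 3 arrays, 957 rose and 443 fell (12.2% called). Their median change was 0.05. All 76 members were among them, and 16 rose under that filter. Change was above 0 in 66 of the 76 members, against 8226 of all 16294 genes. In 42 members each of the wild-type IRE1a arrays lay above each EGFP array, against 15.8% of all genes, and in 5 members each lay below, against 10.9%. Small-subunit genes supplied 8 of the 14 rises.

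The member that rose most was Mrps12, whose protein uS12m sits at the decoding centre of the small subunit. Its signal was 9.56, 9.23 and 9.42 on the EGFP arrays, 10.22, 10.31 and 10.27 with wild-type IRE1a and 10.17, 10.19 and 10.23 with IRE1aS724A. It was 9.72, 9.51 and 9.33 with the control hairpin and 9.67, 9.60 and 9.55 with the IRE1a hairpin. The 6 arrays with an IRE1a protein thus all lay above the other 9, which overlapped each other. Mrps12 was 1.82-fold higher with wild-type IRE1a (change 0.86 ± 0.11, adjusted p = 0.000207, 95% interval 0.63 to 1.10).

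Other rises in the small subunit included proteins with bacterial homologues. Mrps24, which encodes uS3m at the entry of the message channel, gave 10.39, 10.27 and 10.36 with EGFP and 10.77, 10.79 and 11.002 with wild-type IRE1a (change 0.51 ± 0.09, adjusted p = 0.00273). Mrps14, for the small-subunit head protein uS14m, gave 10.47, 10.49 and 10.79 and 11.10, 11.11 and 11.37 (change 0.61 ± 0.12, adjusted p = 0.00463). Mrps16, for bS16m, gave 10.98, 11.12 and 11.38 and 11.64, 11.71 and 11.90 (change 0.59 ± 0.12, adjusted p = 0.00575). No EGFP array of these 3 genes reached the lowest wild-type IRE1a array. Mrps17, for uS17m, rose by 0.49 ± 0.11, adjusted p = 0.0125. Mrps33, whose protein is found only in mitochondrial ribosomes, rose by 0.41 ± 0.10, adjusted p = 0.0237. The other two, Mrps23 (0.34 ± 0.09, adjusted p = 0.0321) and Mrps25 (0.35 ± 0.10, adjusted p = 0.0375), encode further mitochondria-specific proteins.

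In the large subunit, 6 genes rose. Mrpl55, now placed as the homologue of bacterial bL31, gave 9.89, 9.78 and 9.85 with EGFP and 10.41, 10.28 and 10.30 with wild-type IRE1a (change 0.50 ± 0.10, adjusted p = 0.007). Mrpl17, for bL17m near the exit of the peptide tunnel, gave 10.39, 10.22 and 10.43 and 10.68, 10.98 and 10.81 (change 0.48 ± 0.11, adjusted p = 0.0137). Mrpl43, a mitochondria-specific protein, gave 10.37, 10.04 and 10.18 and 10.65, 10.76 and 10.59 (change 0.47 ± 0.11, adjusted p = 0.0139). The groups did not overlap in any of these 3 genes. Mrpl41 rose by 0.56 ± 0.14, adjusted p = 0.0237, Mrpl57 by 0.44 ± 0.11, adjusted p = 0.0252 and Mrpl51 by 0.41 ± 0.10, adjusted p = 0.0258, all 3 for proteins without a bacterial homologue. The lowest p-values among decreases belonged to Mrpl37 (change -0.28 ± 0.10, adjusted p = 0.118) and Mrps31 (change -0.30 ± 0.11, adjusted p = 0.133), neither of which passed.

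The number of rises depended on single arrays. It was 5 without EGFP replicate 2 (Mrpl55, Mrps12, Mrps14, Mrps16 and Mrps24), 8 without wild-type IRE1a replicate 2 and 7 without wild-type IRE1a replicate 3. Rises among all genes, 828 with all arrays, fell as well, to 409, 673 and 467 in the same order. The median member signal of EGFP replicate 2 was 10.33, the lowest among the 9 arrays of that arm, whose highest was 10.72. Its median over all tested genes, 7.27, was also the lowest of the 9. Between arrays of the same replicate number, 54, 71 and 60 of the 76 members were higher with wild-type IRE1a than with EGFP in replicates 1, 2 and 3, with median differences of 0.07, 0.29 and 0.17, against 49.4%, 51.4% and 55.4% of all genes. Over 23 alternative settings the calls of Mrps25, Mrps23 and Mrpl57 were lost in 9, 6 and 5, and those of Mrpl51 and Mrps33 in 5 each. Among all genes, 828 rose and 422 fell as deposited, and 758 rose and 609 fell after quantile normalisation, under which 13 members rose and Mrps31 fell.

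**Figure D2:**
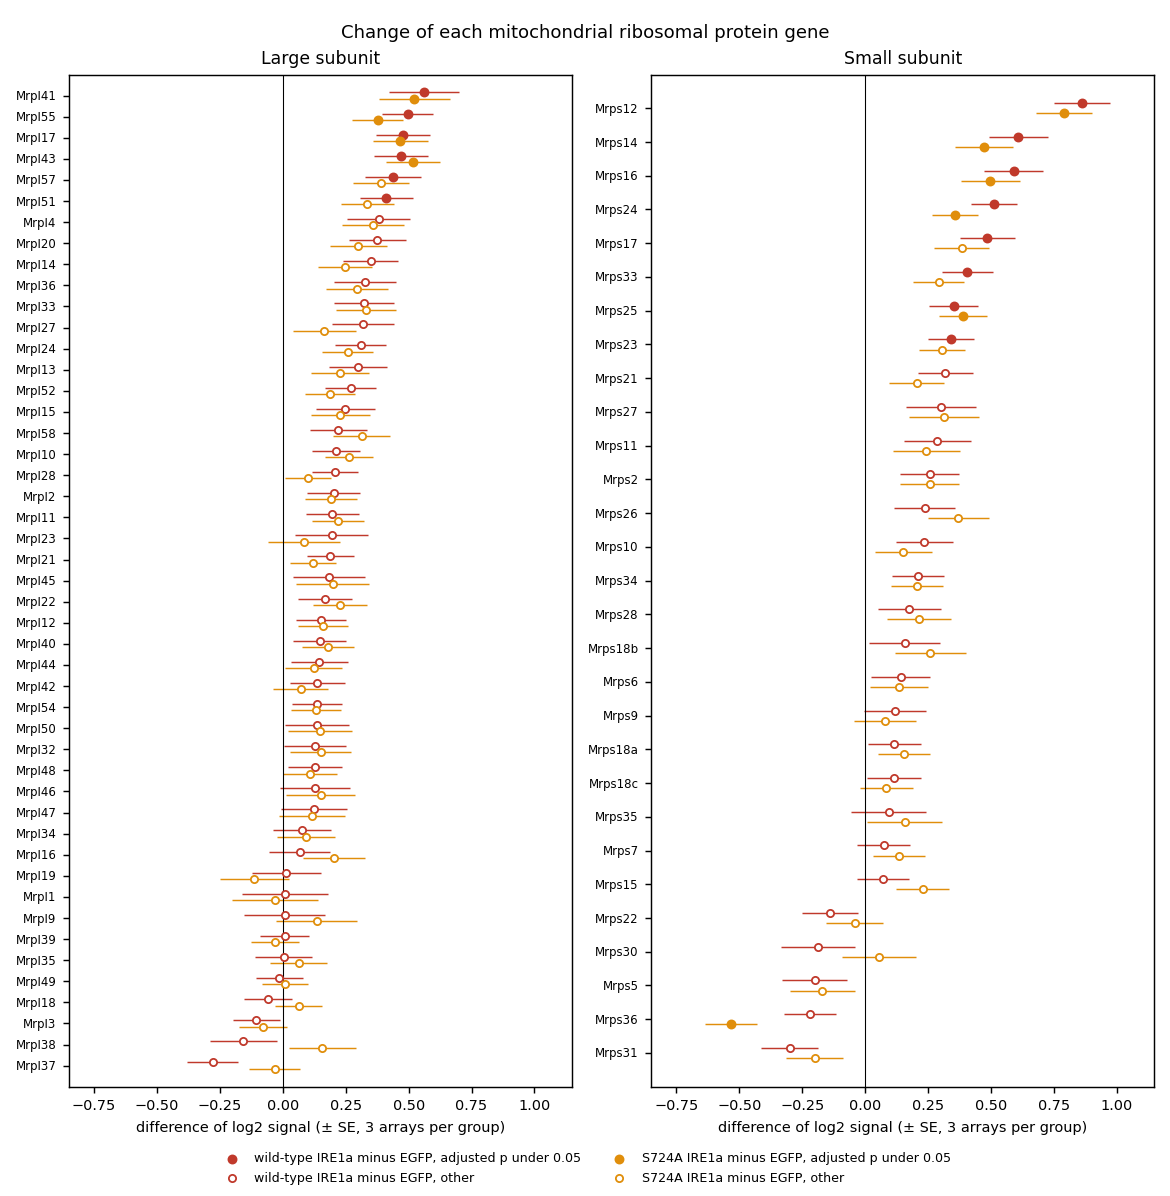
Change of each of the 76 genes (difference of log2 signal ± SE, 3 arrays per group) with wild-type IRE1a (red) and IRE1aS724A (orange) against EGFP, large subunit on the left and small subunit on the right, ordered by the wild-type change. Filled points have an adjusted p under 0.05: 14 rises with wild-type IRE1a, and 9 rises and 1 fall (Mrps36) with IRE1aS724A.

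IRE1aS724A cells were compared with the same EGFP arrays, so this comparison and the one above are not independent. In them 9 members rose, against 3.87% of all genes, and 1 fell, against 2.25%, which makes 10 calls against 6.12% in either direction; 27 members (35.5%) had an unadjusted p under 0.05, as did 3912 of all 16294 genes. The median change was 0.19, against -0.01 for all genes, and the change was above 0 in 67 of 76 members. Of the 11489 genes with a signal of at least 6 on at least 3 arrays, 699 rose and 307 fell (8.76% called). Their median change was 0.06, and 12 members rose and 1 fell under that filter. Each IRE1aS724A array lay above each EGFP array in 39 members, against 16.5% of all genes, and below in 1, against 16.8%. Mrps12 again changed most (change 0.79 ± 0.11, adjusted p = 0.000491). Mrpl43 gave 10.72, 10.65 and 10.76 on the IRE1aS724A arrays (change 0.52 ± 0.11, adjusted p = 0.00968), and Mrps16 gave 11.69, 11.59 and 11.69 (change 0.50 ± 0.12, adjusted p = 0.0211). All 3 genes lay above the EGFP arrays on each array. Mrpl17 rose by 0.47 ± 0.11, adjusted p = 0.0197, Mrpl41 by 0.52 ± 0.14, adjusted p = 0.0408 and Mrpl55 by 0.38 ± 0.10, adjusted p = 0.0417 in the large subunit. In the small subunit Mrps14 rose by 0.47 ± 0.12, adjusted p = 0.0279, Mrps24 by 0.36 ± 0.09, adjusted p = 0.0321 and Mrps25 by 0.39 ± 0.10, adjusted p = 0.0272.

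The member that fell was Mrps36. Its signal was 8.81, 8.85 and 9.01 with EGFP, 8.74, 8.54 and 8.73 with wild-type IRE1a, 8.49, 8.21 and 8.37 with IRE1aS724A, 9.09, 8.94 and 9.05 with the control hairpin and 9.27, 9.11 and 9.14 with the IRE1a hairpin. The 3 IRE1aS724A arrays were the lowest of the 15, at 1.45-fold below EGFP (change -0.53 ± 0.10, adjusted p = 0.0061). Despite its symbol, Mrps36 is no longer held to be a ribosomal subunit; its protein is known to anchor the E3 subunit of the 2-oxoglutarate dehydrogenase complex. RefSeq also lists processed pseudogenes of it, and their share of the signal was not tested.

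The IRE1aS724A counts also depended on single arrays. Without EGFP replicate 2 the rises were 1 (Mrps12), without EGFP replicate 1 they were 5, and without IRE1aS724A replicates 1, 2 or 3 they were 4, 3 or 2. Rises among all genes, 631 with all arrays, were 296, 666, 444, 360 and 407 in the same order. Quantile normalisation left 4 (Mrpl17, Mrpl43, Mrps12 and Mrps16), and among all genes it gave 459 rises and 490 falls in place of 631 and 366. With the replicate number as a block, 16 members rose, and all 10 calls made without the block were among the calls. Between same-number arrays, 61, 71 and 55 members were higher with IRE1aS724A than with EGFP in replicates 1, 2 and 3, against 48.1%, 52.4% and 47.1% of all genes. The call of Mrpl41 was lost in 11 of 23 alternative settings, that of Mrpl55 in 10, those of Mrps14 and Mrps24 in 7 each, that of Mrps25 in 6 and that of Mrps16 in 5. Mrps36 stayed below EGFP, with an adjusted p of at most 0.0416, in all 23 alternative settings, and Mrps12 stayed above it with both proteins.

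**Figure D3:**
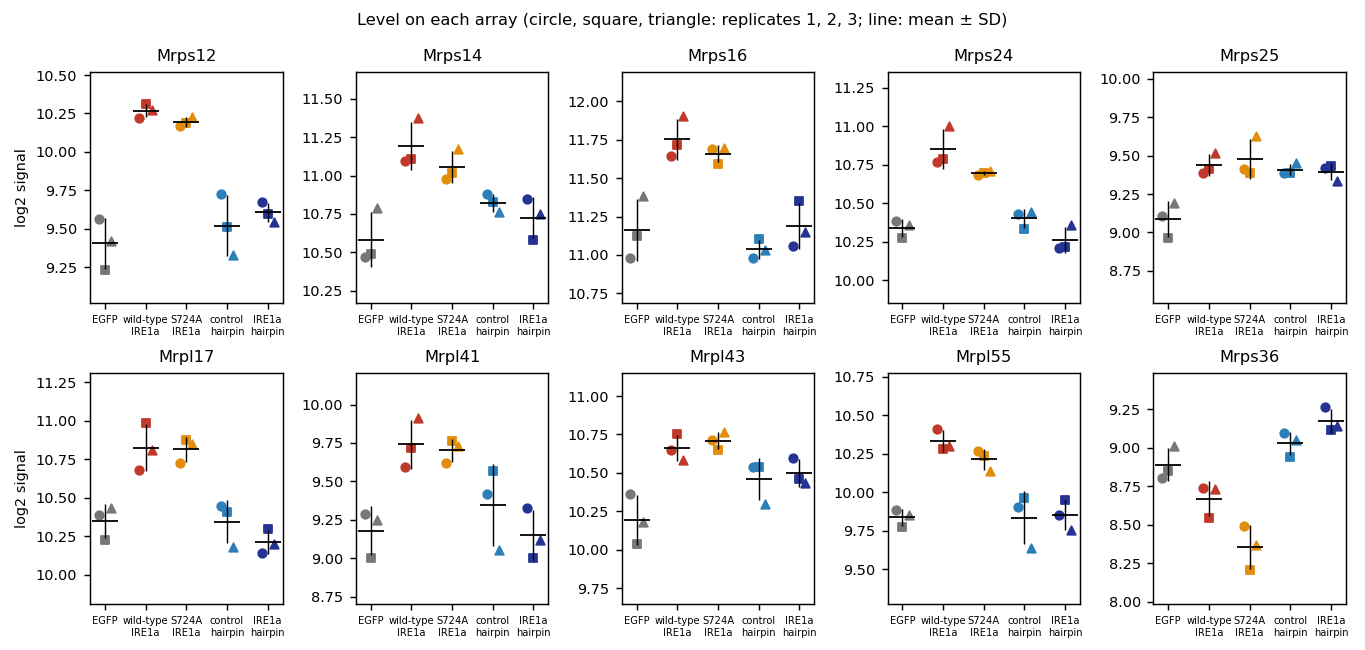
Log2 signal of 10 genes on each of the 15 arrays (circle, square and triangle are replicates 1, 2 and 3; lines are the mean ± SD of 3 arrays), each panel with its own vertical range. The 9 genes that rose with IRE1aS724A have both IRE1a groups above the EGFP arrays, and Mrps36 has its lowest arrays with IRE1aS724A.

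The 2 IRE1a proteins were then compared with each other. Their amounts were not measured here, so an effect of the altered serine cannot be told apart from a difference in amount. No member passed in either direction, against 0.00% of all genes, by limma's moderated test; 1 member was higher and 2 were lower at an unadjusted p under 0.05, together 3.95% against 6.12% of all genes. Mrps36 was higher with the wild-type protein by 0.32 ± 0.10, adjusted p = 0.801, with each wild-type array above each IRE1aS724A array. Mrps24 differed by 0.16 ± 0.09, adjusted p = 0.857. In the other direction Mrpl37 gave 9.06, 9.11 and 9.07 with wild-type IRE1a and 9.48, 9.32 and 9.18 with IRE1aS724A (change -0.25 ± 0.10, adjusted p = 0.803), and Mrpl38 differed by -0.31 ± 0.13, adjusted p = 0.803; both encode mitochondria-specific proteins of the large subunit. The 95% intervals of the 76 differences reached from -0.60 to 0.54, and 3 of them extended beyond 0.5 in size, so differences of that size remained within the interval for 3 members. The median difference was 0.01 for the members and 0.03 for all genes. The groups did not overlap for 4 members higher with the wild-type protein, against 8.56% of all genes, and for 3 lower, against 4.69%. Between same-number arrays, 23, 42 and 57 members were higher with the wild-type protein in replicates 1, 2 and 3, against 47.6%, 48.4% and 66.0% of all genes. In replicate 3 the median difference was 0.09 for the members and 0.09 for all genes.

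Knockdown of IRE1a under glucagon was compared with the control hairpin. No member passed, against 0.233% of all genes in either direction, 0.0491% higher and 0.184% lower, by limma's moderated test, and 1 was higher at an unadjusted p under 0.05 (1.32%, against 7.73% of all genes). That member was Mrpl4, for uL4m at the wall of the peptide tunnel, at 8.32, 8.60 and 8.51 with the control hairpin and 8.74, 8.95 and 8.85 with the IRE1a hairpin (change 0.37 ± 0.12, adjusted p = 0.444). Its groups did not overlap, yet the difference missed the threshold. Mrps34 differed by 0.17 ± 0.10, adjusted p = 0.72, Mrpl36 by -0.21 ± 0.12, adjusted p = 0.698 and Mrps24 by -0.14 ± 0.09, adjusted p = 0.724. The 95% intervals reached from -0.53 to 0.63, beyond 0.5 in size for 2 members, and the median change was -0.02 for the members and 0.02 for all genes. The hairpin groups did not overlap for 2 members that were higher on knockdown, against 6.05% of all genes, and for 2 that were lower, against 5.49%. Of the 14 members that rose with wild-type IRE1a, 6 were below 0 on knockdown and 8 above, and none had an unadjusted p under 0.05. The lowest was Mrpl41 (-0.20 ± 0.14, adjusted p = 0.745) and the highest was Mrps16 (0.15 ± 0.12, adjusted p = 0.764). The change was below 0 by more than its standard error in 3 of the 14 and above 0 by more than it in 2. Mrps12 changed by 0.09 ± 0.11, adjusted p = 0.872 and Mrps14 by -0.10 ± 0.12, adjusted p = 0.864. Among all genes 8 rose and 30 fell, or 18 and 34 after quantile normalisation.

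The control hairpin with glucagon was set against EGFP as a difference of levels between the arms. The virus, the time of infection and glucagon all differed and cannot be told apart. Here 2 members were higher, against 9.34% of all genes, and 4 were lower, against 6.74% (16.1% in either direction). The groups did not overlap for 7 higher members, against 16.6%, and for 10 lower ones, against 19.6%. The median of the members was 0.01 and that of all genes was -0.05. The lower members were Mrpl3, for uL3m near the peptidyl transferase centre (change -0.47 ± 0.09, adjusted p = 0.00453), Mrpl4 (-0.42 ± 0.12, adjusted p = 0.0323), Mrps6, for bS6m (-0.41 ± 0.12, adjusted p = 0.029), and Mrpl18, for uL18m (-0.31 ± 0.09, adjusted p = 0.0373). Mrpl3 gave 10.34, 10.30 and 10.32 with EGFP and 9.78, 9.85 and 9.90 with the control hairpin, and the groups did not overlap. The higher members were Mrps25 (0.32 ± 0.10, adjusted p = 0.0348) and Mrpl21 (0.31 ± 0.09, adjusted p = 0.0348). These calls were fragile. Over 23 alternative settings that of Mrpl21 was lost or reversed in 9, those of Mrpl18 and Mrps25 were lost in 8 each, that of Mrps6 in 7, that of Mrpl4 in 6 and that of Mrpl3 in 1. Among the settings, quantile normalisation gave 0 higher and 8 lower members with a median of -0.08, and the whole table gave 1158 higher and 1406 lower genes in place of 1522 and 1098. Ppargc1a, the coactivator PGC-1a that is induced by glucagon and drives mitochondrial biogenesis, was at 4.66, 4.84 and 4.31 with EGFP and 8.87, 8.91 and 7.85 with the control hairpin (change 3.94 ± 0.32), while the members' median was near 0. In this comparison Acta2, Apoa2, Cldn7, Reln and Tek were lower and Cdh5 was higher among the cell type markers. The summed signals of 5 of the 6 lists for cells other than hepatocytes lay below each EGFP array on each control hairpin array. These lists were dim, the 6 averaging 4.29 to 5.73 with the control hairpin. Their part in the result was not tested.

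**Figure D4:**
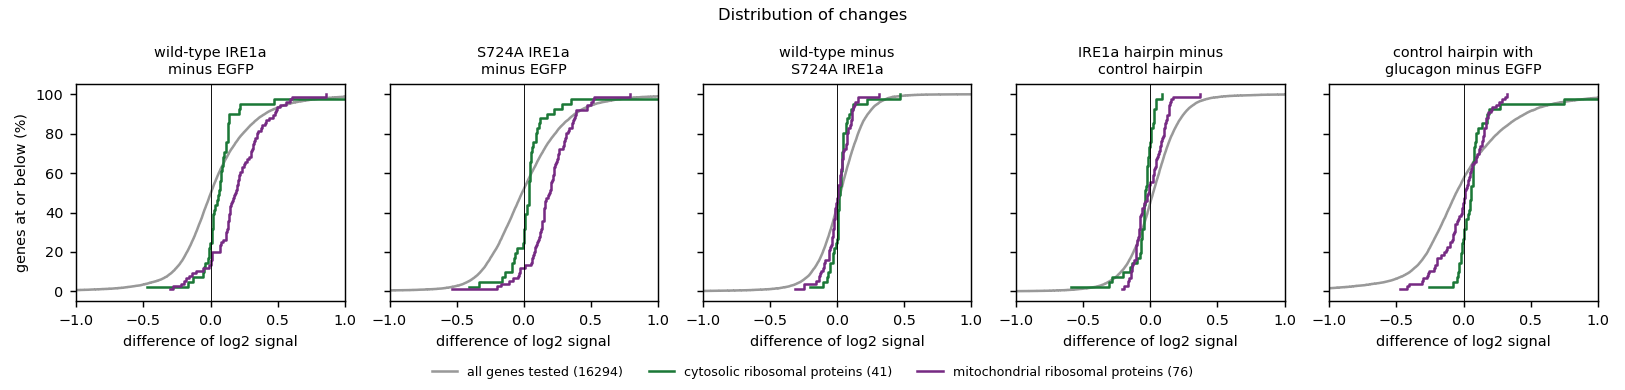
Cumulative share of genes (vertical axis, percent) at or below each difference of log2 signal (horizontal axis) in the 5 comparisons, for all 16294 genes tested (grey), the 41 cytosolic ribosomal protein genes tested (green) and the 76 mitochondrial ribosomal protein genes (purple). The purple curve lies to the right of the grey one in the first 2 panels (medians 0.19 and 0.19 against 0.00 and -0.01) and close to 0 in the others.

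Sorted by symbol, the median changes of the large and the small subunit lay within 0.06 of each other in each comparison. With wild-type IRE1a, 6 of 47 large-subunit genes (12.8%) and 8 of 29 small-subunit genes (27.6%) rose, with median changes of 0.18 and 0.21. With IRE1aS724A, 4 large-subunit and 5 small-subunit genes rose, with medians of 0.16 and 0.21. Among all genes tested, 5.08% rose with wild-type IRE1a and 3.87% with IRE1aS724A. The large median minus the small median was -0.03 with wild-type IRE1a, -0.05 with IRE1aS724A, 0.01 between the 2 proteins, -0.01 on knockdown and -0.06 between the control hairpin and EGFP. On single arrays, the median large-subunit signal minus the median small-subunit signal had a standard deviation of 0.08 within groups. That is a spread of levels on single arrays. The 5 differences are of changes between means of 3 arrays, so it does not measure their precision, and they were not tested. The proteins of Mrps18a and Mrps30 are found in the large subunit despite their symbols. With these 2 counted as large and Mrps36 left out, the medians with wild-type IRE1a were 0.17 over 49 genes and 0.24 over 26. Sorting by descent instead, 7 of 45 genes with a bacterial homologue and 7 of 28 mitochondria-specific genes rose with wild-type IRE1a, with medians of 0.20 and 0.15. With IRE1aS724A, 6 and 3 rose, with medians of 0.21 and 0.18.

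The members are one step of a pathway, and the rest of it was counted by the same fit. The cytosolic ribosome, which makes them, is encoded by the Rpl and Rps genes, 41 of which were tested. Their median change was 0.06 with wild-type IRE1a and 0.04 with IRE1aS724A, and 1 rose (Rps25, 1.43 and 1.42) and 1 fell (Rpl7a, -0.47 and -0.41) in each comparison. That is 4.88% called, against 7.67% and 6.12% of all genes. Rps25 was at 7.82, 8.02 and 7.89 with EGFP, 9.18, 9.34 and 9.50 with wild-type IRE1a and 9.24, 9.08 and 9.84 with the control hairpin, so the EGFP arrays were the low ones. Among 20 assembly factors of the cytosolic ribosome, Utp20 (-0.62) and Rrp1b (-0.62) fell with wild-type IRE1a and none passed with IRE1aS724A. On knockdown Rpl14 fell by 0.59, a call lost in 15 of 23 alternative settings. The median signal of the cytosolic ribosomal protein genes was 13.4 to 13.5 on each array. The probe sets used for Rps25 and Rpl14 (7.67, 7.44 and 7.51 with EGFP) were thus dim for their class. Whether they report the main message of these genes was not tested.

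Of 13 mitochondrial translation factors, 1 rose with each IRE1a protein. It was Mtfmt, the formyltransferase that makes the initiator tRNA, at 7.70, 7.40 and 7.40 with EGFP, 7.91, 8.05 and 8.09 with wild-type IRE1a (change 0.52) and 7.99, 8.13 and 8.11 with IRE1aS724A (change 0.58). Of 19 mitochondrial aminoacyl-tRNA synthetases, Cars2 rose with both (0.71 and 0.71), calls lost in 5 and 11 of the 23 settings. Of 27 assembly factors of the mitochondrial ribosome, Mettl17, which acts on the small subunit, rose with both (0.60 and 0.55), calls lost in 2 and 5 settings. Tfb1m, which methylates the small-subunit RNA, rose with IRE1aS724A (0.62, lost in 7 settings) and was lower with the control hairpin than with EGFP (-0.70). The 5 mitoribosome subunits filed under other symbols had a median change of 0.14 with wild-type IRE1a and none was called. With each IRE1a protein, 7.69% of the translation factors and 5.26% of the synthetases were called. Of the assembly factors, 3.70% were called with wild-type IRE1a and 7.41% with IRE1aS724A. Of all genes, 7.67% and 6.12% were called, so these counts do not set the lists apart from all genes.

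Lists for other functions of the organelle had calls in both directions with wild-type IRE1a, where 7.67% of all genes were called. Of 16 chaperones and proteases, Htra2, a protease of the intermembrane space, rose from 7.77, 7.81 and 7.67 with EGFP to 8.73, 8.96 and 8.90 with wild-type IRE1a (change 1.11) and 8.95, 9.23 and 8.98 with IRE1aS724A (change 1.30). Hspa9, the matrix HSP70, fell with wild-type IRE1a (-0.58). Of 18 import genes, Timm17b of the inner membrane translocase rose with both (0.54 and 0.39), Timm13 rose with IRE1aS724A (0.38) and Tomm22 fell with wild-type IRE1a (-0.49). The IRE1aS724A calls of Timm17b and Timm13 were lost in 7 and 6 of the 23 settings and that of Tomm22 in 3. None of 14 genes for mitochondrial DNA maintenance and transcription and none of 12 regulators of mitochondrial genes passed with either IRE1a protein. Their medians were 0.03 and -0.15 with wild-type IRE1a and 0.14 and 0.03 with IRE1aS724A. Of 10 hepatocyte markers, 1 (Hnf4a, 0.74) rose with wild-type IRE1a; the summed log2 signal of that list ran from 117 to 118 on EGFP arrays and from 118 to 119 on wild-type IRE1a arrays. Its part in the result was not tested. Markers of other cell types had 0 calls with either IRE1a protein. With wild-type IRE1a the summed signal of each of the 6 lists overlapped that of the EGFP arrays. With IRE1aS724A the sum lay below each EGFP array on each array for 5 of the 6, at 55.3 to 56.3 against 56.4 to 57.5 for macrophages, 51.2 to 51.9 against 52.6 to 53.6 for endothelial cells and 45.9 to 46.7 against 47.8 to 48.5 for stellate cells. It was 34.2 to 34.8 against 35.1 to 36.8 for lymphocytes and neutrophils and 15.5 to 15.8 against 15.9 to 16.4 for erythroid cells. For bile duct cells the sums overlapped, at 26.5 to 28.2 against 27.3 to 28.4. The median changes of the 6 lists with IRE1aS724A ran from -0.36 to -0.17, against -0.01 for all genes, while the members' median was 0.19. The lists were dim, averaging 4.32 to 5.72 with IRE1aS724A, where the median of all tested genes was 7.38 to 7.47. Over the 11489 genes left by the stricter filter on low values the median change was 0.06. The value for all genes is thus not matched to the lists in brightness. The part of the lists in the members' changes was not tested.

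Between the control hairpin and EGFP, the same lists had calls in both directions. Of all genes, 16.1% were called, 9.34% higher and 6.74% lower. The calls covered 1 of 13 translation factors, 2 of 19 synthetases and 4 of 27 assembly factors of the mitochondrial ribosome. They also covered 1 of 14 DNA maintenance genes, 2 of 16 chaperones and proteases, 1 of 18 import genes and 2 of 41 cytosolic ribosomal proteins. Each of these shares lay below that of all genes. Of 12 regulators, 4 were called, Ppargc1a among them, a share above that of all genes. Grpel2 (0.85), Mterf3 (0.37), Polg2 (0.67), Fars2 (0.39), Mtfmt (0.37), Afg3l2 (0.29) and Yy1 (0.48) were higher. Mrm1 (-0.64), Ngrn (-0.52), Pars2 (-0.47), Timm9 (-0.52), Tfeb (-0.47) and Pprc1 (-0.40) were lower. Rps25 (1.47) and Rpl14 (0.75) were higher among cytosolic ribosomal proteins, both by probe sets that were dim for their class. Over 23 alternative settings the call of Afg3l2 was lost in 16, that of Mtfmt in 11, that of Pprc1 in 9, that of Timm9 in 6, those of Mterf3, Fars2 and Polg2 in 4 each and those of Yy1 and Ngrn in 3 each.

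Where a gene had several probe sets, they did not always give the same answer. Of the 76 members, 42 had more than 1. With wild-type IRE1a the probe sets of Mrpl17, Mrpl28, Mrpl41, Mrpl51, Mrpl57, Mrps14, Mrps23, Mrps24 and Mrps25 differed in call. For Mrps14 the probe set used gave 0.61 and the dimmer one 0.52, and for Mrps24 they gave 0.51 and 0.43, so the sizes were close. For Mrpl17, Mrpl57, Mrpl51 and Mrps25 at least 1 probe set with a mean under 6 gave a change below 0. For Mrpl41 both bright probe sets rose (0.56 and 0.59), while the third, at a mean signal of 4.54, gave -0.09. Mrpl28 was not called by the probe set used (0.21), and another of its probe sets gave 0.32. In further members the probe sets differed in sign with none called. Examples, named after their values were seen, are Mrpl33 (-0.13 and 0.32) and Mrps26 (-0.22 and 0.24). With IRE1aS724A the probe sets of Mrpl17, Mrpl41, Mrps9, Mrps14, Mrps24 and Mrps25 differed in call; for Mrps9 the one used gave 0.08 and the dimmest gave 0.44. Between the control hairpin and EGFP those of Mrpl3, Mrpl13, Mrpl15, Mrpl21, Mrps6, Mrps9, Mrps21, Mrps23 and Mrps25 differed. Mrpl21 gave 0.31 by the probe set used and -0.35 by its dimmest one. With the mean over a gene's probe sets, 12 members rose with wild-type IRE1a, 9 of them among the 14 above. By that mean the change was above 0 in 62 of the 76 members, against 66 by the probe sets used. The probe sets used for Mrps12, Mrps24, Mrps6, Mrpl37 and Mrpl38 carry the manufacturer's suffix for probes shared by several transcripts, which can come from different genes. Those of Mrpl15 and Mrpl28 carry the suffix for probes that may cross-hybridise. Those of 23 further members, among them Mrps16, Mrps17, Mrps33, Mrps23, Mrpl17, Mrpl41, Mrpl51 and Mrpl55, carry the suffix for several transcripts of 1 gene.

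Some members start near a gene on the opposite strand that points away from them. Among the 67 members with a window, RefSeq places such a divergent neighbour within 1000 bases of the start of 25. Distances ran from 8 to 935 bases, and a shared promoter was not tested. The share of all genes with such a neighbour was not counted. In all, 25 neighbours were tested, among them the members Mrps11 and Mrpl46. With wild-type IRE1a, 1 neighbour rose, Ncapd2 beside Mrpl51 (1.00), and the median change of the neighbours was 0.13. Of all genes 5.08% rose, with a median of 0.00. With IRE1aS724A, 1 neighbour rose, Ighmbp2 beside Mrpl21 (0.53), and the median was 0.12, where 3.87% of all genes rose with a median of -0.01. The neighbour of Mrps12, Sars2, starts 147 bases away and encodes the mitochondrial seryl-tRNA synthetase; it changed by -0.0020 with wild-type IRE1a while Mrps12 rose. Twnk, the mitochondrial DNA helicase 116 bases from Mrpl43, changed by 0.23 and did not pass. Mrpl46 and Mrps11 are each other's neighbours, 42 bases apart, and changed by 0.13 and 0.29, neither past the threshold; Mrpl46, Sars2, Twnk and the other neighbours in this paragraph were named after their values were seen.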

How the data were processed

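Total RNA of 15 samples was hybridised to 1 array each. Per the submitters' processing notes the authors used GCRMA (version not given in the sources used here), which corrects background by probe sequence, normalises by quantiles and summarises probe sets. The deposited values are log2 signals, a scale read from the values. Quantile steps of this kind can hide a shift shared by most genes. Of 45101 probe sets, 64 controls were left out and 34945 had 1 gene symbol; 932 had several and 9160 had none. The probe set with the highest mean stood for a gene (18193 genes), and genes with a value of at least 4 on at least 3 arrays were tested (16294). All 15 arrays entered 1 linear model of their 5 groups, with limma 3.58.1 in R 4.3.3 (lmFit and eBayes, 10 residual degrees of freedom), two-sided, with Benjamini-Hochberg adjustment per comparison. The arrays' number limits precision: 95% intervals had median half-widths of 0.30 over all genes and 0.24 over the members. The fit was tested on simulated data. The members and gene lists were chosen with earlier results of these data known. Mrpl30 and Mrpl53, whose probe sets carry several symbols, were not analysed here. Named members were all those past the threshold up to 12 per direction and comparison (by smallest p), the 2 with the smallest p where none passed, those whose probe sets differed in call, the 3 brightest and the 3 dimmest, and up to 3 called genes per pathway list. No test was made over a list. Same-number arrays of an arm had correlated residuals (r from 0.20 to 0.69 in all 12 pairs, and at most 0.08 for other numbers). The numbers were therefore taken to pair arrays within an arm, a reading from the data and the statement of 3 experiments. The main fit left this pairing out, so its standard errors, intervals and p-values treat the groups as unpaired. With the replicate number as a block, calls over all genes went from 7.67% to 15.6% with wild-type IRE1a. They went from 6.12% to 14.4% with IRE1aS724A and from 0.233% to 1.23% on knockdown. Between the 2 proteins and on knockdown, 0 members passed with the block as well. Alternatives were the replicate number as a block per arm, quantile normalisation, median centring, other filters, the mean of a gene's probe sets, the 6 arrays of a comparison alone, trended variances and leaving out each array. P-values measure only the spread between these samples.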

Additional observations from a re-analysis of the deposited data

How the results depend on the processing

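Over the alternatives, the median change of the members minus that of all genes kept its sign with both IRE1a proteins, from 0.12 (quantile normalisation) to 0.21 with the wild-type protein and from 0.13 (stricter filter on low values) to 0.24 with IRE1aS724A. Counts moved more. Rises with wild-type IRE1a were 6 from the 6 arrays of the comparison alone and 5 to 16 when 1 array was left out; quantile normalisation gave 1 fall. Rises with IRE1aS724A were 4 under quantile normalisation, 16 with the replicate block and 1 to 11 when 1 array was left out. Between the control hairpin and EGFP, higher members were 0 under quantile normalisation, 1 with the mean of a gene's probe sets, 0 from the 6 arrays alone and 0 to 2 when 1 array was left out; lower members were 8 under quantile normalisation, 1 under median centring, 1 from the 6 arrays alone and 1 to 5 when 1 array was left out. Mrpl21 reversed there with the mean of a gene's probe sets (-0.021, adjusted p = 0.906 by limma). The replicate block raised the rises with wild-type IRE1a to 20 and all genes' rises from 828 to 1726 and falls from 422 to 813, and for IRE1aS724A from 631 to 1448 and from 366 to 899. On knockdown it gave 87 rises and 113 falls in place of 8 and 30, and 1990 falls in place of 1098 and 2316 rises in place of 1522 for the control hairpin against EGFP; it ended no call of a member that the text names. The cause of these moves was not tested. The calls of Mrps12, Mrps16, Mrps24 and Mrpl55 with wild-type IRE1a and of Mrps12 and Mrps36 with IRE1aS724A held in all 23 alternatives. Signals near background limit the dim probe sets.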
